A study of Mus musculus with 15 samples.

Results

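Expression of 8 genes of the monocyte lineage was followed across 4 genotypes of transplanted mouse bone marrow. They comprise the transcription factors Irf8 and Klf4, the chemokine receptors Ccr2 and Cx3cr1, the surface proteins Ly6c2, Cd14 and Ms4a6c, and the secreted product F13a1. The genes were listed by symbol, and each symbol was matched to its Ensembl identifier in a count table of 45706 genes with the GENCODE vM21 annotation. All 8 were found, and all 8 passed the filter on low counts together with 18983 genes in total.

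Monocytes arise in the marrow from granulocyte and monocyte progenitors. PU.1 and IRF8 drive that choice, and KLF4 acts in monocyte differentiation downstream of them. Classical monocytes carry Ly6C and CCR2, which lets them leave the marrow toward the ligand CCL2, whereas the patrolling, Ly6C-low monocytes depend on CX3CR1 for survival. IRF8 and CX3CR1 are also made by dendritic cells and their precursors, so that these genes are not restricted to monocytes.

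Libraries came from lineage-negative cells of the femur of secondary recipients, that is, mice that had received marrow stem and progenitor cells (LSK) by serial transplantation. The groups were WT (3 libraries), Puma-/- (4), G3 mTerc-/-Puma+/+ (4) and G3 mTerc-/-Puma-/- (4). Puma encodes a BH3-only protein that triggers apoptosis downstream of p53, mTerc encodes the RNA component of telomerase, and G3 denotes the third generation bred without it. The lineage markers listed by the study include CD11b, by which it also gated monocytes, so that CD11b-bearing monocytes were among the cells to be removed. Lineage-negative cells were enriched with magnetic beads, so that carry-over of maturing cells and of host cells is possible, and in such bulk samples fewer monocytic cells and less RNA per cell cannot be told apart.

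Library totals ranged from 102790519 to 158367059 counts. Terc was at most 0.0097 CPM, the count relative to a TMM-scaled library total, in the 8 mTerc-/- libraries and at least 0.0353 CPM in the other 7. Bbc3, the gene of PUMA, measured 5.03 to 6.77 CPM in Puma-/-, but 13.7 to 17.3 CPM in the libraries labeled G3 mTerc-/-Puma-/-, within the 9.77 to 23.6 CPM of WT. The label of that group is therefore used here as a name, and no direction is attributed to the loss of PUMA in it. Replicate 2 of the libraries labeled G3 mTerc-/-Puma-/- stood apart: it is not drawn in the heatmaps of the study, and it was left out of the fit but kept in all descriptions, with values from a fit of 15 libraries beside those that it moved. Xist, transcribed in female cells, was at 464 to 861 CPM in Puma-/- and at most 89.4 CPM in G3 mTerc-/-Puma+/+, and the Y-linked Ddx3y was at no more than 0.0446 CPM in Puma-/- but at 21.4 to 43.2 CPM in WT and 43.5 to 48.4 CPM in G3 mTerc-/-Puma+/+. Xist did not overlap between Puma-/- and WT either (1.73 to 419 CPM). Genotype and sex of the cells therefore cannot be told apart in the comparisons of Puma-/- with these groups. In replicates 1 to 4 of the libraries labeled G3 mTerc-/-Puma-/-, Xist was at 669, 88.4, 0.388 and 450 CPM. Ddx3y was at 2.91, 38.5, 46.1 and 4.31 CPM in the same order. Ddx3y did not overlap between WT and G3 mTerc-/-Puma+/+. Sex of the cells thus varied in the other comparisons too, where the main fit did not separate it from genotype. Several libraries held both transcripts, such as WT replicate 1 (Xist 419, Ddx3y 21.4 CPM), so that male and female cells were mixed there. Nothing in the labels says that replicates of a genotype were separate donors, and p-values therefore measure the spread between these libraries.

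Levels between the 8 genes were compared per kilobase of exon. Over 14 libraries, Ly6c2 was the most abundant at 451 CPM per kilobase, followed by F13a1 at 122, Irf8 at 107, Klf4 at 72.6, Ms4a6c at 70.2, Ccr2 at 50.7, Cx3cr1 at 17.3 and Cd14 at 8.02. Together the 8 genes held 0.285% to 0.430% of the counts in these libraries and 0.119% in replicate 2 of the libraries labeled G3 mTerc-/-Puma-/-. Ly6c1, the neighbor and paralog of Ly6c2, was at 0.655 to 1.34 CPM, and 13.9% of the 50-base stretches of Ly6c2 transcripts also occur in Ly6c1. Of the exonic bases of Ms4a6c, 53.1% overlap BE692007 on the opposite strand. The strand setting of the counting is not given in the sources used here, and BE692007 was counted at 14.2 to 24.2 CPM in the 14 libraries.

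For 7 of the 8 genes the RefSeq annotation of GRCm38.p6 gave windows of 250 bases before to 50 after a transcription start. The stretches before the most upstream start of Ly6c2, F13a1, Irf8 and Ms4a6c are shown because they allow the PU.1 core GAGGAA to be compared between the 2 most abundant products, which hold it, and 2 genes that do not. Capitals mark the core.
Ly6c2, chr15:75111972-75112221, minus strand, GRCm38.p6: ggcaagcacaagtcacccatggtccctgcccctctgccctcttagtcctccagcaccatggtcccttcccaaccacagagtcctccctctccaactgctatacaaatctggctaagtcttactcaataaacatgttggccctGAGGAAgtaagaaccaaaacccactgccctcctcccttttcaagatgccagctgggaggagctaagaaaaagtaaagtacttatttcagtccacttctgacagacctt
F13a1, chr13:37050245-37050494, minus strand, GRCm38.p6: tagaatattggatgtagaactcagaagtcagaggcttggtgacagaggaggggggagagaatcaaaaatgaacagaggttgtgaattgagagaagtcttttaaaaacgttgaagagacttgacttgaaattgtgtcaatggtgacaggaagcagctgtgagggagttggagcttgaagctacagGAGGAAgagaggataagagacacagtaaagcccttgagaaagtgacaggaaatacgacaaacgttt
Irf8, chr8:120736108-120736357, plus strand, GRCm38.p6: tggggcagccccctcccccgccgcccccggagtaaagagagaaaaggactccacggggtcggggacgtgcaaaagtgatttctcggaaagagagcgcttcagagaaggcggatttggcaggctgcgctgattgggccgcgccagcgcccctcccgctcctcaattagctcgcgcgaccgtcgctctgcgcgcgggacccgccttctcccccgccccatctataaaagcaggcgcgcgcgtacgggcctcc
Ms4a6c, chr19:11469118-11469367, plus strand, GRCm38.p6: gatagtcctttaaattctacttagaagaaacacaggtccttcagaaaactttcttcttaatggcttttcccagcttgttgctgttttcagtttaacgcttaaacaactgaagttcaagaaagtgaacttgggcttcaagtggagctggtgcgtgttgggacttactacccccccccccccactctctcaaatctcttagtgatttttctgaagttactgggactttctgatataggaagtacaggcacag

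The PU.1 core lay 108 bases before the start of Ly6c2 and 66 bases before that of F13a1. It was present, on either strand and in any window, in 2 of 7 genes (28.6%) beside 28.3% of all 32851 RefSeq promoter windows of 300 bases. The KLF box CACCC was found in Cx3cr1, F13a1 and Ly6c2, that is in 42.9% of the genes beside 57.5% of all windows. The 7 genes had 10 windows together, so that shares of genes and shares of windows differ in unit and are not directly comparable. No match was found for the ETS-IRF composite element, the ISRE half-site pair or the C/EBP motif TTGCNNAA, which occur in 2.72%, 3.44% and 10.8% of all windows. The letters GGAA are common to the PU.1 core and the composite element, and the letters GAAA to the composite element and the ISRE pair, so that these motifs can overlap.

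Irf8 (chr8:120736358-120756694, plus strand), the factor that directs progenitors toward monocytes and dendritic cells, varied little in WT and Puma-/-. WT libraries measured 850, 773 and 812 CPM, and Puma-/- libraries 816, 785, 737 and 710 CPM. The G3 mTerc-/-Puma+/+ libraries measured 809, 454, 638 and 797 CPM, and those labeled G3 mTerc-/-Puma-/- 874, 31.1, 694 and 817 CPM. Apart from 1 low library in each of the mTerc-/- groups, the 4 groups overlapped. Mean levels followed the order WT (812 ± 38.5, SD, n = 3), G3 mTerc-/-Puma-/- without replicate 2 (795 ± 92.0, n = 3), Puma-/- (762 ± 47.4, n = 4) and G3 mTerc-/-Puma+/+ (674 ± 166, n = 4), and no neighbors in this order differed beyond their spread.

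Klf4 (chr4:55527143-55532466, minus strand), a zinc finger factor of monocyte differentiation that is also an immediate early gene, was at 310, 182 and 378 CPM in WT. Puma-/- libraries had 215, 169, 170 and 181 CPM, and G3 mTerc-/-Puma+/+ libraries 225, 189, 176 and 198 CPM. In the libraries labeled G3 mTerc-/-Puma-/- the values were 337, 19.2, 174 and 194 CPM. WT replicate 2 and replicates 3 and 4 of this last group lay within the range of Puma-/-, and the groups overlapped. Replicate 2 of this last group lay far below that range. The means were 290 ± 99.4 CPM in WT, 235 ± 88.8 in G3 mTerc-/-Puma-/- without replicate 2, 197 ± 20.9 in G3 mTerc-/-Puma+/+ and 184 ± 21.4 in Puma-/-, with no gap between neighbors that exceeded the spread.

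Ccr2 (chr9:124101950-124113557, plus strand), the receptor for CCL2, measured 412, 299 and 348 CPM in WT and 301, 262, 322 and 333 CPM in Puma-/-. G3 mTerc-/-Puma+/+ libraries were at 370, 336, 349 and 406 CPM, each above each Puma-/- library. The libraries labeled G3 mTerc-/-Puma-/- were at 355, 43.6, 376 and 331 CPM. Means were 365 ± 30.3 (G3 mTerc-/-Puma+/+), 354 ± 22.6 (G3 mTerc-/-Puma-/- without replicate 2), 353 ± 56.5 (WT) and 304 ± 31.4 CPM (Puma-/-).

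Cx3cr1 (chr9:119901616-120069879, minus strand), the fractalkine receptor, had 85.9, 75.0 and 91.3 CPM in WT and 88.2, 82.2, 75.8 and 93.0 CPM in Puma-/-. In G3 mTerc-/-Puma+/+ it was at 77.4, 32.8, 66.3 and 88.7 CPM, and in the libraries labeled G3 mTerc-/-Puma-/- at 96.7, 4.81, 72.3 and 64.1 CPM. The group ranges overlapped, and the libraries lowest for Cx3cr1 in the 2 mTerc-/- groups were also the lowest for Irf8.

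Ly6c2 (chr15:75108158-75111970, minus strand), encoding the Ly6C antigen of classical monocytes, was at 1294, 1206 and 1606 CPM in WT. Puma-/- libraries had 942, 704, 1096 and 1121 CPM, each below each WT library. G3 mTerc-/-Puma+/+ libraries had 1474, 1215, 1257 and 1291 CPM. The libraries labeled G3 mTerc-/-Puma-/- had 1346, 876, 1357 and 1374 CPM. Puma-/- was thus the lowest group (966 ± 192 CPM), while WT (1370 ± 210), G3 mTerc-/-Puma-/- without replicate 2 (1360 ± 13.9) and G3 mTerc-/-Puma+/+ (1310 ± 114) lay within their spread of each other.

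Cd14, on chromosome 18, encodes the co-receptor that hands lipopolysaccharide to TLR4. It was the least abundant of the 8 genes, with 17.9, 8.39 and 31.3 CPM in WT and 8.56, 5.68, 9.36 and 7.62 CPM in Puma-/-. G3 mTerc-/-Puma+/+ libraries had 8.39, 29.7, 9.997 and 9.78 CPM, and the libraries labeled G3 mTerc-/-Puma-/- had 22.1, 7.11, 14.4 and 11.4 CPM. The coefficient of variation reached 70.4% in G3 mTerc-/-Puma+/+ and 59.8% in WT, beside 20.3% in Puma-/-.

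Ms4a6c (chr19:11469366-11482192, plus strand), a member of the MS4A family of tetraspanning membrane proteins, had 170, 125 and 193 CPM in WT and 129, 120, 126 and 121 CPM in Puma-/-. The G3 mTerc-/-Puma+/+ libraries were at 174, 121, 120 and 151 CPM, and those labeled G3 mTerc-/-Puma-/- at 173, 15.3, 153 and 138 CPM. Puma-/- libraries lay close together, with a coefficient of variation of 3.34%, and overlapped with WT and G3 mTerc-/-Puma+/+.

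F13a1 (chr13:36867178-37050244, minus strand), the A subunit of coagulation factor XIII and an abundant transcript of monocytes, was at 996, 750.5 and 1087 CPM in WT. Puma-/- libraries had 752, 523, 661 and 690.0 CPM, and G3 mTerc-/-Puma+/+ libraries 979, 755, 827 and 793 CPM. In the libraries labeled G3 mTerc-/-Puma-/- it was at 1124, 103, 848 and 741 CPM. The Puma-/- mean (657 ± 96.5 CPM) was the lowest, and each G3 mTerc-/-Puma+/+ library exceeded each Puma-/- library.

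**Figure D1:**
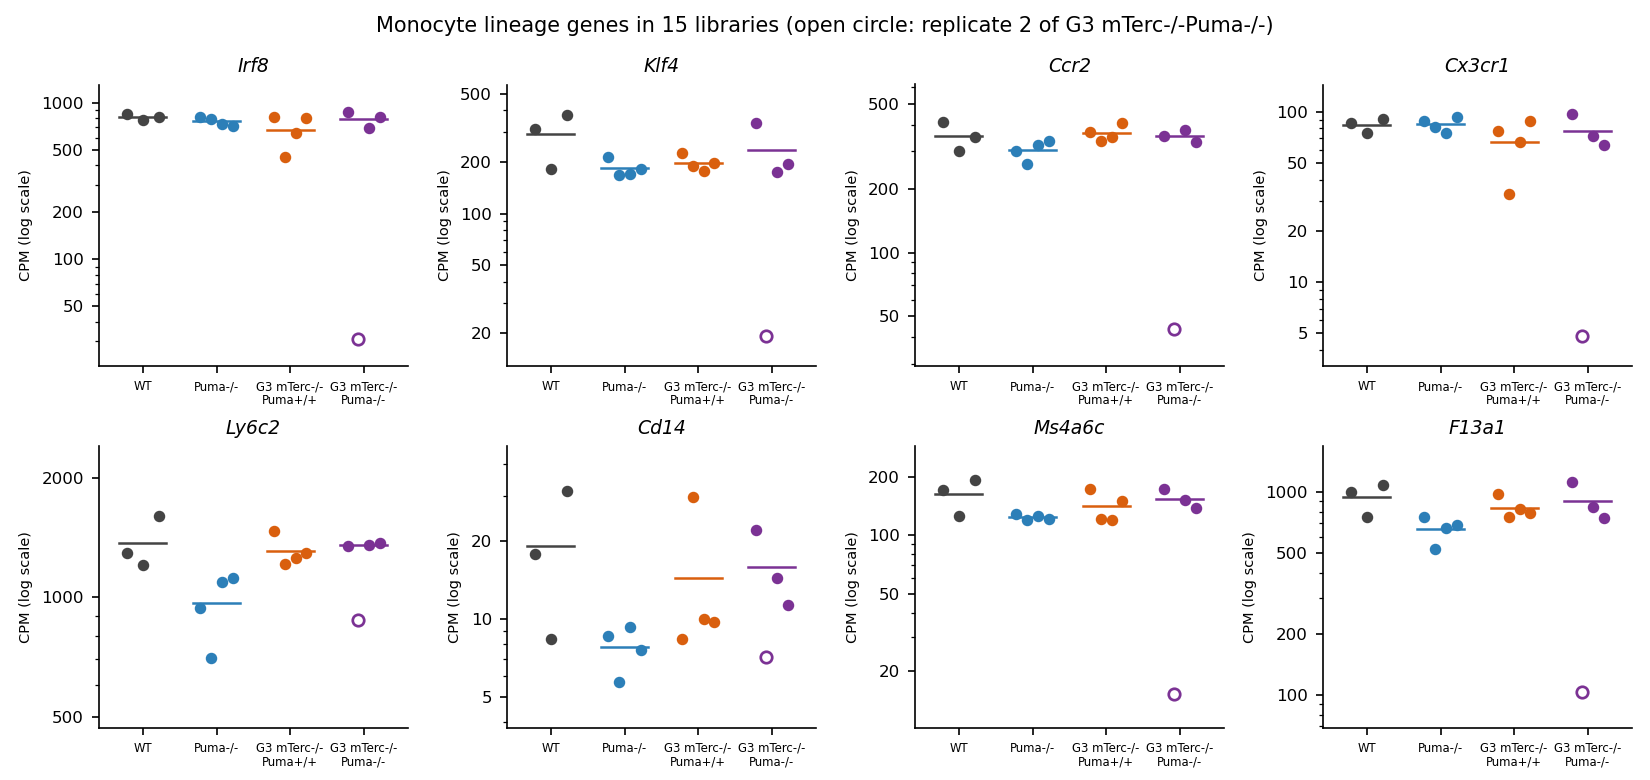
CPM of each gene (y axis, log scale) by genotype (x axis), 1 point per library; bars are group means, without replicate 2 of the libraries labeled G3 mTerc-/-Puma-/-, which is drawn as an open circle. In 6 panels the open circle lies below each other library, while for Ly6c2 (876 CPM) and Cd14 (7.11 CPM) it lies among them.

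Puma-/- was compared with WT to ask how these genes stood where Puma was lost and telomerase kept, with the limit that the sex of the cells differed along with the genotype. In edgeR's quasi-likelihood test, with p-values adjusted over all genes by the Benjamini-Hochberg method, 0 of 8 genes passed an adjusted p of 0.05, in a comparison in which 0.0790% of all genes passed. DESeq2 and limma-voom likewise called 0 of 8. Fitted log2 fold changes were below 0 for 7 of 8 genes, with a median of -0.44 beside 0.0048 over all genes. An unadjusted p under 0.05 was found for 5 of the 8 genes and for 1926 of all 18983, and with 15 libraries for 2 of the 8, Ly6c2 and Cd14. The 5 genes were Ly6c2 (log2 fold change -0.49, SE 0.145, adjusted p = 0.357), F13a1 (-0.51, SE 0.164, adjusted p = 0.386), Klf4 (-0.65, SE 0.235, adjusted p = 0.421), Cd14 (-1.29, SE 0.469, adjusted p = 0.422) and Ms4a6c (-0.38, SE 0.146, adjusted p = 0.435). The 95% interval for Ly6c2 reached from -0.80 to -0.18, that is, from 0.573-fold to 0.882-fold of the WT level. Irf8 (-0.08, SE 0.155), Ccr2 (-0.20, SE 0.112) and Cx3cr1 (0.02, SE 0.241) had intervals that included 0. Only Ly6c2 had libraries that did not overlap between the groups, which was the case for 10% of all genes. Of the markers of other cells, all 5 megakaryocyte genes had an unadjusted p under 0.05 and fitted values above 0 (median 1.06, with sums of 318 to 533 CPM in Puma-/- against 129 to 280 CPM in WT), and 9 of 9 conventional dendritic genes had fitted values above 0 (median 0.43). Values above 0 also prevailed for B cell (6 of 7, median 0.60), stem and progenitor (7 of 8, 0.51), marrow macrophage (11 of 12, 0.48) and mast and basophil genes (5 of 5, 0.40). The same held for late neutrophil (8 of 10), T and NK cell (7 of 8), plasmacytoid (7 of 8) and primary granule genes (6 of 7). Erythroid genes were below 0 for 6 of 7. The part of these cells and of sex in the values of the 8 genes was not tested.

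G3 mTerc-/-Puma+/+ was compared with WT to ask how these genes stood where telomerase was lost and Puma kept. Telomere length is not given for these libraries. The sex of the cells is a limit here too, as Ddx3y did not overlap between the groups. None of the 8 genes was called (0.0369% of all genes). An unadjusted p under 0.05 was found for 1 of the 8 (0 with 15 libraries) and for 733 of all 18983 genes. Libraries overlapped for each of the 8 (4.15% of all genes did not overlap). Klf4 had the lowest fitted value, at -0.56 (SE 0.235, adjusted p = 0.998), followed by Cd14 at -0.40 (SE 0.468), Cx3cr1 at -0.34 (SE 0.240) and Irf8 at -0.27 (SE 0.155). Ms4a6c (-0.20, SE 0.146), F13a1 (-0.17, SE 0.165), Ly6c2 (-0.06, SE 0.145) and Ccr2 (0.05, SE 0.113) lay nearer to 0. For Ly6c2 the interval of -0.38 to 0.25 bounds the difference to within 0.771-fold and 1.19-fold.

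The libraries labeled G3 mTerc-/-Puma-/- were compared with WT and with G3 mTerc-/-Puma+/+, and 0 of 8 genes were called in either comparison. With 14 libraries 0.0632% and 0.0738% of all genes passed, with 15 libraries 0.0418% and 0.0313%. Against WT, fitted log2 fold changes ranged from -0.31 (Klf4, SE 0.253) to -0.0018 (Ccr2, SE 0.120), the sign of those of Irf8, Ccr2 and Ly6c2 turned when library size alone set the scale, and no gene had an unadjusted p under 0.05. With 15 libraries they ranged from -0.69 (Klf4, SE 0.545) to -0.15 (Ly6c2, SE 0.179), and their median moved from -0.08 to -0.44. Against G3 mTerc-/-Puma+/+, Klf4 was at 0.24 (SE 0.236), Irf8 at 0.23 (SE 0.155), Cx3cr1 at 0.22 (SE 0.240), Cd14 at 0.12 (SE 0.470), Ms4a6c at 0.12 (SE 0.146), F13a1 at 0.10 (SE 0.165), Ly6c2 at 0.05 (SE 0.145) and Ccr2 at -0.05 (SE 0.113). The adjusted p-values of edgeR's test ran from 0.908 to 0.997, and again no unadjusted p was under 0.05. Libraries overlapped for each of the 8 genes in both comparisons, where 8.50% and 5.53% of all genes did not overlap. With all 15 libraries the fitted values against G3 mTerc-/-Puma+/+ were below 0 for all 8 genes, to between -0.41 (Ccr2, SE 0.414) and -0.08 (Ly6c2, SE 0.166), so that the direction of all but Ccr2 turned with 1 library.

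Against Puma-/-, the libraries labeled G3 mTerc-/-Puma-/- showed 0 of 8 calls (0.306% of all genes; 0.308% with 15 libraries), but 7 of 8 fitted values above 0, a number that fell to 3 with 15 libraries. Ly6c2 was 1.39-fold higher (log2 0.48, SE 0.145, adjusted p = 0.289), Cd14 was at 1.01 (SE 0.468, adjusted p = 0.589), F13a1 at 0.44 (SE 0.165, adjusted p = 0.451) and Ms4a6c at 0.30 (SE 0.146, adjusted p = 0.616). Klf4 (0.34, SE 0.236), Ccr2 (0.20, SE 0.112), Irf8 (0.04, SE 0.155) and Cx3cr1 (-0.14, SE 0.242) had 95% intervals that included 0. The interval of Ms4a6c (-0.0155 to 0.611) included 0 as well, and that of Cd14 began at 0.00602. Ly6c2, Cd14 and Ms4a6c did not overlap between these groups (9.70% of all genes), and each of them overlapped once replicate 2 was included. The 2 comparisons with Puma-/- and that of Puma-/- with WT share the Puma-/- libraries, so their values are given side by side and not as separate evidence.

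G3 mTerc-/-Puma+/+ against Puma-/- was the pairwise comparison with the most calls (0.801% of all genes), and 0 of 8 genes were among them. Ly6c2 was at 0.43 (SE 0.135, adjusted p = 0.138), F13a1 at 0.34 (SE 0.153, adjusted p = 0.277) and Ccr2 at 0.25 (SE 0.104, adjusted p = 0.238), and these 3 genes did not overlap between the groups, as was the case for 11.2% of all genes. Cd14 was at 0.89 (SE 0.440), Ms4a6c at 0.18 (SE 0.135), Klf4 at 0.09 (SE 0.219), Irf8 at -0.19 (SE 0.144) and Cx3cr1 at -0.37 (SE 0.223). DESeq2 called 1 of the 8, Ly6c2 (log2 fold change 0.43, adjusted p = 0.0432), in a test in which it called 996 genes where edgeR called 152. The adjusted p of Ly6c2 ranged from 0.0432 to 0.452 over 23 alternative settings.

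The interaction of mTerc and Puma sets the difference between the 2 mTerc-/- groups against that between Puma-/- and WT. Since Bbc3 in the libraries labeled G3 mTerc-/-Puma-/- lay within the WT range, it is a contrast of the labeled groups and is not read as an effect of PUMA loss. Of the 8 genes 0 were called (0.0527% of all genes; 0.0470% with 15 libraries), all 8 fitted values lay above 0, and the median was 0.52. Klf4 (0.89, SE 0.333, adjusted p = 0.902), F13a1 (0.62, SE 0.233, adjusted p = 0.914), Ly6c2 (0.54, SE 0.205, adjusted p = 0.914) and Ms4a6c (0.50, SE 0.206, adjusted p = 0.942) had an unadjusted p under 0.05. Of all 18983 genes, 936 did. With 15 libraries none of the 8 had one, 5 of 8 fitted values lay above 0, and the median fell to 0.19.

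**Figure D2:**
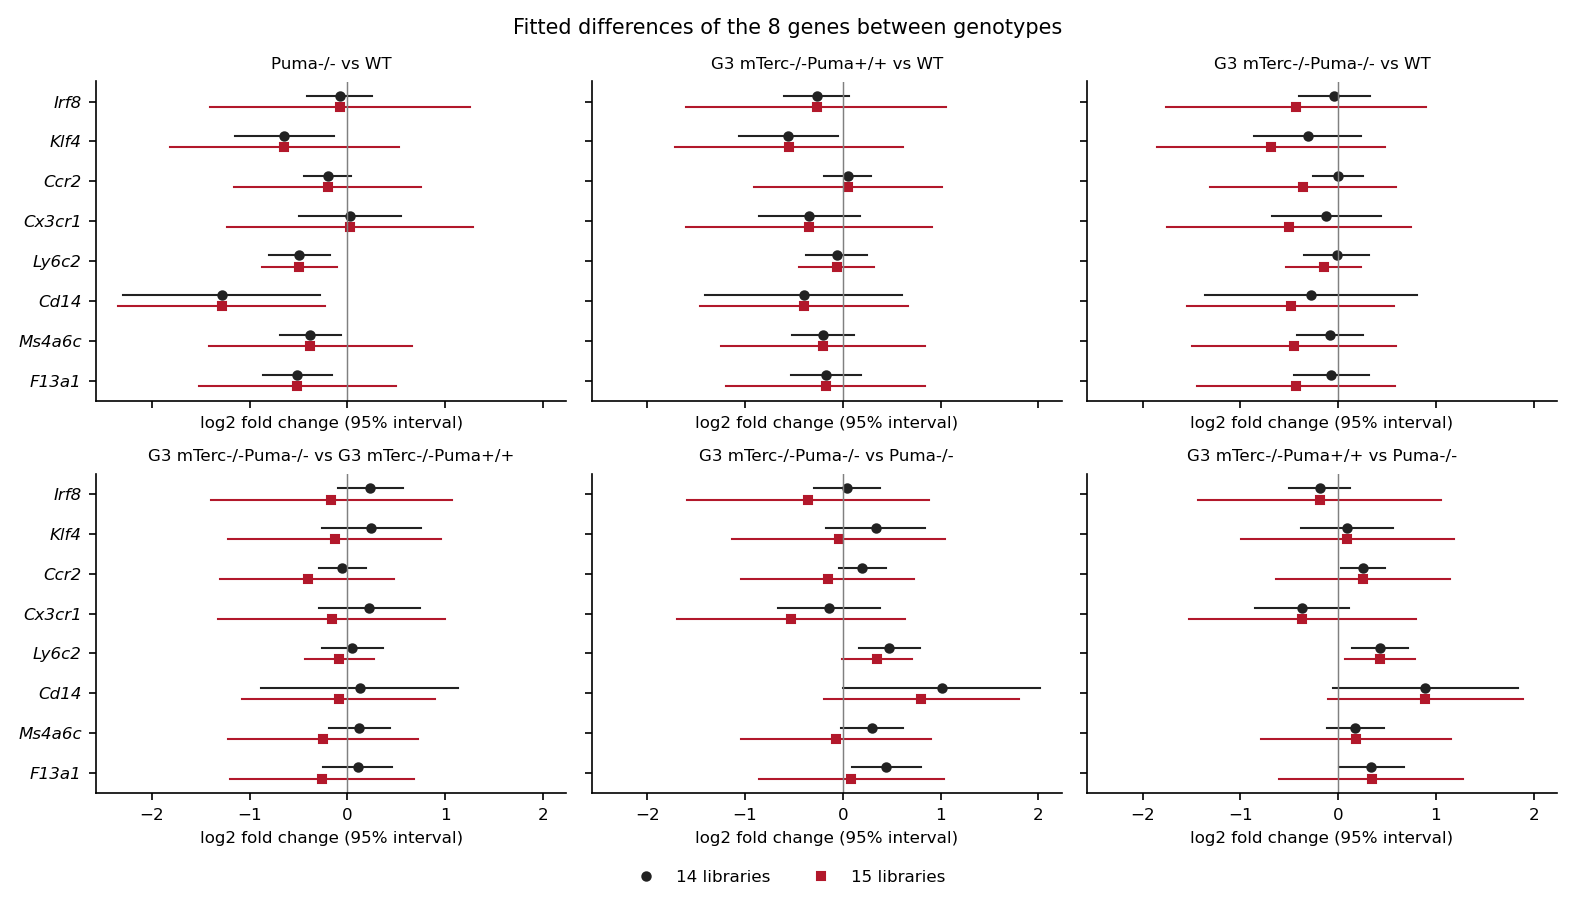
Fitted log2 fold changes (x axis) of the 8 genes (y axis) in the 6 pairwise comparisons, with 95% intervals; black circles are fits of 14 libraries, red squares fits of all 15. Including replicate 2 of the libraries labeled G3 mTerc-/-Puma-/- widened the intervals of Irf8, Klf4, Ccr2, Cx3cr1, Ms4a6c and F13a1 in each panel and those of Ly6c2 less, while those of Cd14 changed little and in 3 panels narrowed.

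The widest departures of the 8 genes occurred within a genotype, in replicate 2 of the libraries labeled G3 mTerc-/-Puma-/-. Irf8 was at 3.91% of the mean of replicates 1, 3 and 4 (31.1 against 795 CPM), Cx3cr1 at 6.19%, Klf4 at 8.17%, Ms4a6c at 9.89%, F13a1 at 11.4% and Ccr2 at 12.3%. Each of these 6 genes was lower there than in each of the other 14 libraries, which held for 24.5% of all genes, and 2.76% of all genes were at or below 20% of the other replicates. These values describe 1 library and carry no test. Counting error was small at this depth, as Irf8 still had 3652 counts and Cx3cr1 565.

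Ly6c2 and Cd14 did not follow. Ly6c2 stood at 64.5% of the other replicates (876 CPM) and Cd14 at 44.6% (7.11 CPM), and for both genes a Puma-/- library was lower. The ratio of Ly6c2 to Irf8 counts was 28.2 in this library and 0.896 to 2.68 in the other 14, and that of Ly6c2 to F13a1 was 8.50 beside 1.2 to 1.85. BE692007, which overlaps Ms4a6c, was at 4.96 CPM there and at 15.4 to 19.7 CPM in the sister libraries.

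Other genes of the lineage were low in the same library. Csf1r, the M-CSF receptor, was at 25.7 CPM (8.43% of the other replicates), Ly86, the partner of CD180, at 6.26 CPM (4.74%), Irf5 at 12.2%, Mpeg1 at 10.6% and Fn1 at 9.56%. Of 45 genes in the lists of monocyte factors, receptors and products, 31 had their lowest value there and 15 were at or below 20%. Spi1, the gene of PU.1, remained at 63.6% and Cebpa at 78.1%.

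Markers of other cells moved in this library too, and their part in the result was not tested. Of 9 conventional dendritic genes 8 were at their lowest, with a summed level of 173 CPM against 829 to 1120 CPM in the sister libraries, and of 8 plasmacytoid genes 6 were (101 against 310 to 356 CPM; Klk1 at 0). Erythroid genes were highest in 7 of 7 cases, with a sum of 1130 CPM against 40.5 to 174 CPM. Primary granule genes, of neutrophil precursors, were highest in 6 of 7, late neutrophil genes in 5 of 10 and marrow macrophage genes in 6 of 12 (366 against 190 to 297 CPM), while 22.2% of all genes had their highest value there.

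**Figure D3:**
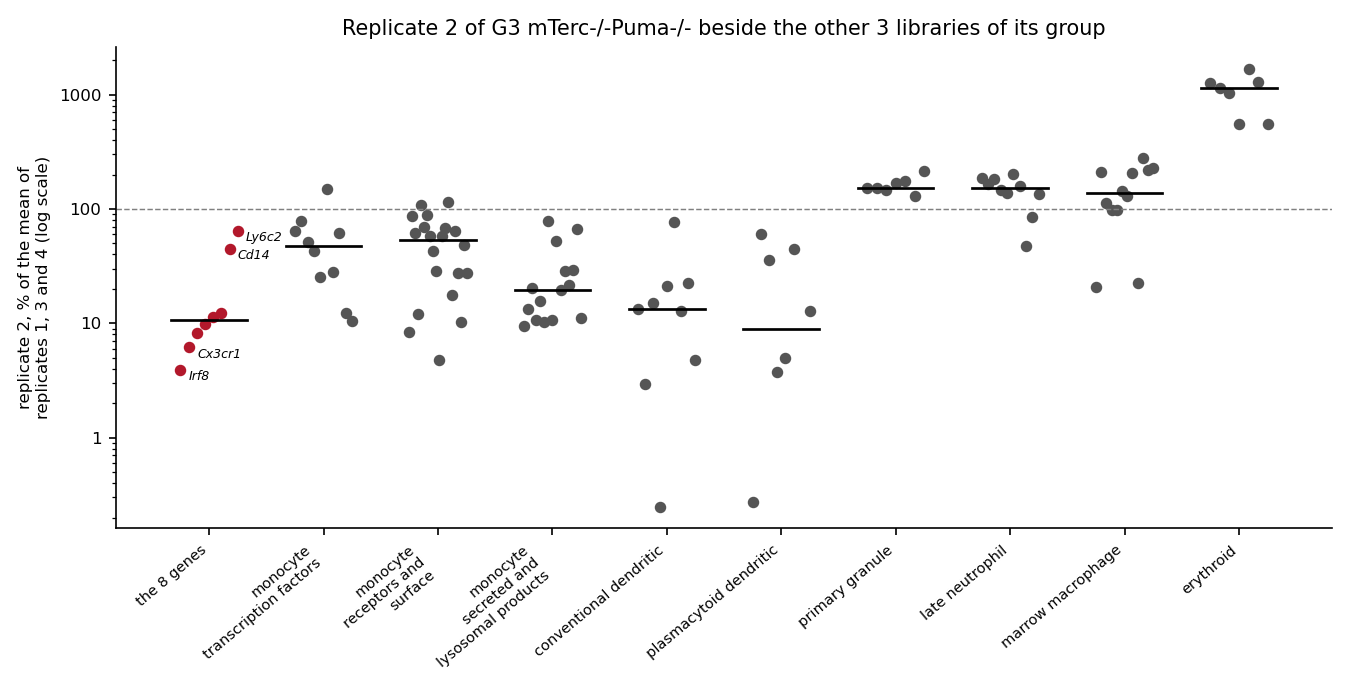
Level in replicate 2 of the libraries labeled G3 mTerc-/-Puma-/- as a percentage of the mean of replicates 1, 3 and 4 (y axis, log scale) for the 8 genes (red) and for the genes of 9 marker lists (gray); 1 point per gene, bars are medians, the dashed line marks 100%. The 8 genes have a median of 10.6% and the erythroid list one of 1140%.

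A second library, replicate 2 of G3 mTerc-/-Puma+/+, was the lowest of the 14 fitted libraries for Irf8 (454 CPM) and Cx3cr1 (32.8 CPM), and the highest of its group for Cd14 (29.7 CPM). Its ratio of Ccr2 to Cx3cr1 counts was 10.2, beside 3.19 to 5.27 in the other 13 fitted libraries. Its conventional dendritic genes summed to 450 CPM, the lowest of those 14 libraries, and Flt3, a receptor of dendritic precursors, was at 56.2 CPM beside 96.8 to 148 CPM in the sister libraries. The sums of this library were also the lowest of the 14 for marrow macrophage (91.3 CPM) and erythroid genes (20.2 CPM). The same held for mast and basophil (1230 CPM) and stem and progenitor genes (367 CPM). Its primary granule genes had the highest sum of the 14 (26100 CPM). Whether dendritic or any of these other cells account for the Irf8 and Cx3cr1 values was not tested.

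Beyond the 8 genes, 62 further genes in 5 lists described the lineage, its ligands and CD14 signaling. Only the comparison of G3 mTerc-/-Puma+/+ with Puma-/- gave calls among them, 4 lower and 1 higher of 61 tested, beside 0.801% of all genes. The other 6 comparisons gave 0 calls in these lists with edgeR.

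Of 20 receptors and surface genes, 3 fell, and all 3 are known from patrolling, Ly6C-low monocytes. Ace, angiotensin-converting enzyme, was at 3.91, 0.726, 3.57 and 1.88 CPM in G3 mTerc-/-Puma+/+ and at 16.9, 21.3, 7.34 and 24.0 CPM in Puma-/- (log2 fold change -2.80, SE 0.528, adjusted p = 0.0425). WT libraries were at 9.59, 4.03 and 4.75 CPM, of which the first lay within the Puma-/- range, and the libraries labeled G3 mTerc-/-Puma-/- at 23.1, 5.03, 23.1 and 8.95 CPM. Adgre4, an adhesion receptor of the F4/80 family, fell by 2.10 (SE 0.437, adjusted p = 0.0472), from 5.02 to 14.7 CPM in Puma-/- to 0.958 to 3.29 CPM. Treml4, a TREM-like receptor, fell by 1.41 (SE 0.269, adjusted p = 0.0429), from 4.93 to 10.6 CPM to 1.85 to 3.79 CPM. In WT, Adgre4 was at 3.08 to 8.12 CPM, overlapping with both groups, and Treml4 at 3.91 to 4.02 CPM, between them. For each of the 3 genes, the G3 mTerc-/-Puma+/+ and Puma-/- libraries did not overlap. Spn and Itgal, of the same list and also high in patrolling monocytes, had fitted values of only -0.08 (SE 0.086) and -0.11 (SE 0.142).

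Csf1, the growth factor of the lineage and 1 of 7 ligands listed, fell by 0.73 (SE 0.139, adjusted p = 0.0429), with 35.3 to 45.1 CPM in G3 mTerc-/-Puma+/+ against 57.3 to 75.2 CPM in Puma-/-. Emb, a membrane glycoprotein listed with 15 secreted, lysosomal and other monocyte products, rose by 0.52 (SE 0.107, adjusted p = 0.0469), from 271 to 338 CPM to 384 to 505 CPM.

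These 5 calls were close to the threshold. With 15 libraries none remained (adjusted p from 0.0792 to 0.472), although the fitted values stayed at -2.80 (Ace), -2.10 (Adgre4), -1.40 (Treml4), -0.73 (Csf1) and 0.52 (Emb). With Xist as a covariate none remained either, with -2.57 (Ace), -1.96 (Adgre4), -1.40 (Treml4), -0.58 (Csf1) and 0.39 (Emb) and adjusted p from 0.168 to 0.262. Leaving out single libraries gave 0 to 6 calls in these lists, with 0 calls when Puma-/- replicate 1, 2 or 4 or G3 mTerc-/-Puma+/+ replicate 2, 3 or 4 was left out. Marrow macrophage genes, 12 of 12 of which had lower fitted values in G3 mTerc-/-Puma+/+ (median -0.61), summed to 91.3 to 200 CPM there and 167 to 243 CPM in Puma-/-. Conventional dendritic genes (9 of 9 lower, median -0.69) summed to 450 to 1130 CPM against 1330 to 1640 CPM. Larger medians below 0 were found for megakaryocyte (5 of 5 lower, -1.31, 3 called), B cell (7 of 7, -1.29, 2 called) and plasmacytoid genes (8 of 8, -0.88, 0 called). Mast and basophil (5 of 5) and stem and progenitor genes (8 of 8) were lower too. Higher values prevailed for erythroid (7 of 7), primary granule (6 of 7), late neutrophil (6 of 10) and T and NK cell genes (5 of 8). The part of these cells, and of sex, in the 5 calls was not tested.

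**Figure D4:**
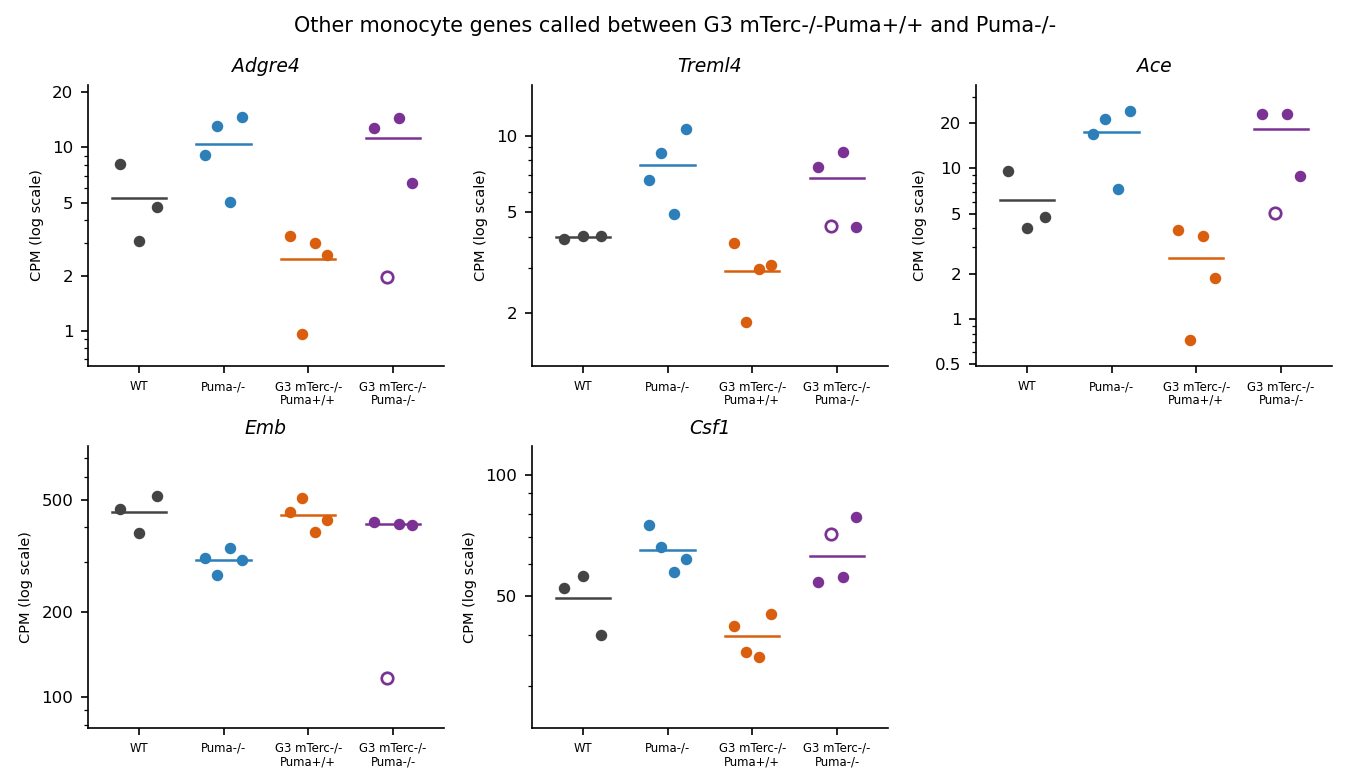
CPM (y axis, log scale) of the 5 further genes called between G3 mTerc-/-Puma+/+ and Puma-/-, by genotype (x axis), 1 point per library, with group means as bars; the open circle is replicate 2 of the libraries labeled G3 mTerc-/-Puma-/-, which is not in the means. In each panel the points of G3 mTerc-/-Puma+/+ and Puma-/- do not overlap.

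The remaining list genes were named by the size of their fitted change. Against WT, G3 mTerc-/-Puma+/+ had its lowest values for Nr4a1, the factor of patrolling monocytes and an immediate early gene (-1.56, SE 0.668, edgeR adjusted p = 0.998; 17.1 to 43.2 CPM against 17.2 to 106 CPM), and Ace (-1.28, SE 0.535). The highest were those of the chemokine Ccl8 (1.82, SE 1.42), at no more than 1.31 CPM in any library, and of the proteoglycan Vcan (0.59, SE 0.551). In the libraries labeled G3 mTerc-/-Puma-/- against G3 mTerc-/-Puma+/+, Ace (2.86, SE 0.549, adjusted p = 0.0773) and Adgre4 (2.19, SE 0.458, adjusted p = 0.113) had the highest fitted values, without overlap in 14 libraries but short of the threshold. The lowest were Batf3 (-0.23, SE 0.258) and Tlr4 (-0.15, SE 0.138).

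By list, the median fitted log2 fold changes of the libraries labeled G3 mTerc-/-Puma-/- against G3 mTerc-/-Puma+/+ were 0.09 for 10 monocyte transcription factors, 0.18 for 20 receptors and surface genes, 0.20 for 15 products, 0.46 for 6 ligands tested and -0.03 for 10 genes around CD14, beside -0.01 over all genes. With 15 libraries they were -0.17, -0.05, -0.12, 0.79 and -0.08, so that the sign of the first 3 lists turned with 1 library. For Puma-/- against WT they were -0.20, -0.02, -0.24, 0.50 and -0.04. Products were below 0 for 14 of 15 genes in that comparison, transcription factors for 8 of 10, and 0 genes were called in either list.

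Across libraries the 8 genes moved together unequally. With all 15 libraries the median Pearson correlation of log2 CPM over 28 pairs was 0.91, and without replicate 2 of the libraries labeled G3 mTerc-/-Puma-/- it was 0.51 (-0.32 to 0.88). Over those 14 libraries Irf8 and Cx3cr1 were the closest pair (0.88), followed by Ms4a6c and F13a1 (0.85), Klf4 and Ms4a6c (0.84), Klf4 and F13a1 (0.82) and Ly6c2 and F13a1 (0.82). Irf8 against Ly6c2 was at 0.05. These points share library, depth and cell mixture, and the coefficients describe the libraries only.

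The genes whose pattern over 15 libraries was most like that of each member were Ppfia4, Pkib and Rasa4 for Irf8 (Pearson 0.993 to 0.996), Upb1, Cd180 and March1 for Cx3cr1 (0.989 to 0.991), Ehd4, Hpse and Nlrp3 for Klf4 (0.985 to 0.989), and Ly86, Tpd52 and Ms4a4c for Ccr2 (0.977 to 0.985). They were Tpd52, Csf1r and Ctsh for Ms4a6c (0.991 to 0.993), Ehd4, Hpse and Ms4a6c for F13a1 (0.982 to 0.989), Ints12, I830127L07Rik and Mgst1 for Ly6c2 (0.915 to 0.925), and Gla, Rhob and Ccl2 for Cd14 (0.944 to 0.967). With 14 libraries, 6 of these 24 genes stayed among the 3 most similar: Ppfia4 for Irf8, Nlrp3 for Klf4, I830127L07Rik for Ly6c2, and Gla, Rhob and Ccl2 for Cd14.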

How the data were processed

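RNA sequencing of lineage-negative marrow cells was deposited as a table of raw counts per gene for 15 libraries. Per the labels and the methods of the study, the authors prepared stranded poly(A) libraries, trimmed reads with Trimmomatic 0.38 and aligned and counted them with STAR 2.5.2b on mm10. The strand setting of the counting and the annotation release are not given in the sources used here, and 563 identifiers had no GENCODE symbol.

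Counts were analyzed in R 4.3.3 with edgeR 4.0.16 (TMM, filterByExpr, quasi-likelihood test, all genotypes in 1 fit of 14 libraries, Benjamini-Hochberg over 18983 genes, threshold 0.05) for 6 pairwise comparisons and the interaction. Levels are CPM with TMM factors over 15 libraries, log2 CPM having a prior count of 2. Between replicates the chi-square per gene was 38.3 to 706, so no pair of libraries was alike within counting error. The fit was tested on simulated counts. The genes and lists were chosen with earlier results of these data known. All 8 genes were named in every comparison, list genes if called and otherwise by the 2 largest rises and falls in 2 comparisons, together with Bbc3, Terc, Xist and the 3 genes most correlated with each member, and other genes were named after their values were seen. Alternatives were all 15 libraries, library size alone, DESeq2 1.42.0, limma-voom 3.58.1, other count filters, fits of the compared groups, a replicate block, Xist as a covariate and leaving out each library. The protein comparison planned for these genes was not run.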

Additional observations from a re-analysis of the deposited data

Results flagged for a closer look

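Among the 8 genes, Bbc3 and the 5 called list genes, 42 sets of 4 libraries of a genotype were examined for a library set apart by a gap beyond Dixon's 95% critical value, which chance gives in about 1 in 20 sets, and 5 were found. In the libraries labeled G3 mTerc-/-Puma-/-, replicate 2 was the lowest for Ccr2 (43.6 CPM, others 331 to 376 CPM), Ly6c2 (876 CPM, others 1346 to 1374 CPM) and Emb (117 CPM, others 407 to 417 CPM). For Ly6c2 the gap is wide only beside the narrow range of the other 3 libraries, since 876 CPM lies within the values of Puma-/-. In G3 mTerc-/-Puma+/+, replicate 2 was the highest for Cd14 (29.7 CPM, others 8.39 to 9.997 CPM). In Puma-/-, replicate 2 was the highest for Bbc3 (6.77 CPM, others 5.03 to 5.13 CPM). No cause was tested for these libraries.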

How the results depend on the processing

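None of the 8 monocyte lineage genes was called in any of the 7 comparisons by the edgeR fit of 14 libraries, and the other settings gave the same count of 0 except DESeq2, which called 1 (Ly6c2) between G3 mTerc-/-Puma+/+ and Puma-/-. Of 496 fitted differences of these genes under other settings 25 changed sign, and of 784 with a library left out 27 did; the cause was not tested. Calls among the 5 wider list genes were less steady: 65 of 115 values lost the call and 0 reversed.

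With all 15 libraries, 7 of the 8 genes turned to negative log2 fold changes for G3 mTerc-/-Puma-/- against G3 mTerc-/-Puma+/+: Irf8 -0.165, Klf4 -0.131, Cx3cr1 -0.16, Ly6c2 -0.0824, Cd14 -0.0881, Ms4a6c -0.247 and F13a1 -0.258. Against Puma-/- the same setting gave Irf8 -0.353, Klf4 -0.0392, Ccr2 -0.156 and Ms4a6c -0.069, and for the interaction it gave Irf8 -0.0851, Ccr2 -0.207 and Cx3cr1 -0.184. For G3 mTerc-/-Puma-/- against WT, library size alone gave Irf8 0.0128, Ccr2 0.0489 and Ly6c2 0.0387, and Ccr2 was 0.00843 with limma-voom, 0.00362 with no filter beyond a count above 0 and 0.00235 with at least 1 CPM in 3 libraries. With Xist as a covariate, Cx3cr1 was -0.13 for Puma-/- against WT and 0.00331 for G3 mTerc-/-Puma-/- against Puma-/-.

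Leaving out 1 library at a time, the values of G3 mTerc-/-Puma-/- against G3 mTerc-/-Puma+/+ that changed sign ran from -0.103 to 0.000729 (Ccr2), -0.184 to 0.759 (Cd14), -0.00189 to 0.398 (Cx3cr1), -0.0828 to 0.229 (F13a1) and -0.106 to 0.417 (Klf4). Against WT they ran from -0.11 to 0.112 (Ccr2), -0.632 to 0.272 (Cd14), -0.306 to 0.00329 (Cx3cr1), -0.254 to 0.0576 (F13a1), -0.109 to 0.0484 (Irf8), -0.101 to 0.116 (Ly6c2) and -0.24 to 0.058 (Ms4a6c). Against Puma-/- they ran from -0.0297 to 0.128 (Irf8) and -0.0144 to 0.51 (Klf4). For G3 mTerc-/-Puma+/+ against WT they ran from -0.056 to 0.161 (Ccr2), -1.04 to 0.149 (Cd14) and -0.147 to 0.0696 (Ly6c2). Cx3cr1 ran from -0.0533 to 0.0889 for Puma-/- against WT and from -0.0136 to 0.373 for the interaction.

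Over all genes, the fit called 15 for Puma-/- against WT, 7 for G3 mTerc-/-Puma+/+ against WT, 12 for G3 mTerc-/-Puma-/- against WT, 14 for G3 mTerc-/-Puma-/- against G3 mTerc-/-Puma+/+, 58 for G3 mTerc-/-Puma-/- against Puma-/-, 152 for G3 mTerc-/-Puma+/+ against Puma-/- and 10 for the interaction. In that order DESeq2 called 136, 46, 91, 172, 287, 996 and 64, and leaving out 1 library gave 11 to 28, 1 to 8, 1 to 16, 4 to 38, 18 to 93, 18 to 228 and 5 to 11. G3 mTerc-/-Puma-/- against G3 mTerc-/-Puma+/+ had 6 calls with 15 libraries, 2 with only the compared groups, 8 with library size alone and 33 without the filter. G3 mTerc-/-Puma+/+ against Puma-/- had 24 with 15 libraries and 18 with Xist as a covariate. G3 mTerc-/-Puma-/- against Puma-/- had 90 with only the compared groups and 33 with Xist. G3 mTerc-/-Puma+/+ against WT had 4 with 15 libraries and 3 with only the compared groups, G3 mTerc-/-Puma-/- against WT had 5 with the latter, and limma-voom called 5 for the interaction.

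In the wider monocyte list, the 5 calls between G3 mTerc-/-Puma+/+ and Puma-/- became 10 with DESeq2, 1 with only the compared groups, 0 with 15 libraries, 0 with Xist and 0 to 6 with a library left out. For G3 mTerc-/-Puma-/- against Puma-/- the 0 calls became 3 with DESeq2, 1 without the filter, 2 with only the compared groups and 0 to 2 with a library left out. For G3 mTerc-/-Puma-/- against G3 mTerc-/-Puma+/+ they became 5 with DESeq2 and 1 without the filter, and for Puma-/- against WT 2 with DESeq2 and 0 to 1 with a library left out. The 24 genes of most similar pattern became 6 with 14 libraries.

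Replicate numbers were not used as pairs in the main fit. Deviations of same-numbered libraries from their group means correlated from -0.067 to 0.156 for number 1 and -0.253 to 0.0466 for number 2. They correlated from -0.0875 to 0.175 for number 3 and 0.0124 to 0.0856 for number 4. Differently numbered libraries were not correlated for comparison, so these values cannot decide whether same-numbered libraries shared an experiment. The replicate block called 0 of the 8 genes, 21 genes for G3 mTerc-/-Puma-/- against Puma-/-, 43 for G3 mTerc-/-Puma+/+ against Puma-/- and, of the wider list, 1 in the latter. Under it Cx3cr1 was -0.0252 for Puma-/- against WT, Ly6c2 -0.0358 for G3 mTerc-/-Puma-/- against G3 mTerc-/-Puma+/+ and Irf8 -0.0278 for G3 mTerc-/-Puma-/- against Puma-/-.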

Other observations

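Ligands of the 2 chemokine receptors had low counts in these cells. Ccl2, the ligand of CCR2, ranged from 1.52 to 14.97 CPM over the 15 libraries, and its highest values were 14.97 CPM in WT replicate 3, 11.3 CPM in replicate 1 of the libraries labeled G3 mTerc-/-Puma-/-, 8.45 CPM in replicate 2 of G3 mTerc-/-Puma+/+ and 8.32 CPM in WT replicate 1. Klf4 was at 378, 337, 189 and 310 CPM in these libraries. Ccl12 was at 0.0254 CPM or less. Ccl7 was at 1.61 CPM in replicate 2 of the libraries labeled G3 mTerc-/-Puma-/- and at most 0.184 CPM in the other 14. Cx3cl1, the ligand of CX3CR1, had its highest value in that same library (5.43 CPM, others 0.958 to 3.46 CPM), as did Tlr4 (17.0 CPM, others 8.15 to 13.4 CPM) and Lbp (158 CPM, others 69.9 to 150 CPM).

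Chil3, a product of neutrophil and monocyte progenitors, ranged from 39.4 to 139 CPM in Puma-/- and from 300 to 583 CPM in the libraries labeled G3 mTerc-/-Puma-/-, all 4 included. Unlike 6 of the 8 genes, it was not low in replicate 2 of that group (300 CPM). Chil3 was not called by edgeR between these groups, where 0 of 15 products were. In 14 libraries 9.70% of all genes did not overlap between them. Late neutrophil genes summed to 1450 to 4690 CPM in the libraries labeled G3 mTerc-/-Puma-/- and to 366 to 2020 CPM in Puma-/-.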
